A study of Mus musculus with 3 samples.

Results

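Of the 32285 genes in the count tables, 10 that encode or accompany the extracellular matrix of cartilage were followed through the developing secondary palate of the mouse: Col2a1, Col9a1, Col9a2, Col9a3, Matn1, Matn3, Acan, Cnmd, Hapln1 and Mia. They were taken by name. RNA was read in single cells of wild-type mouse palates (strain C57BL/6J). There were 3 stages, E13.5, E14.5 and E15.5 in days of gestation, over which the shelves rise and fuse. The tissue of 3 embryos was pooled into 1 library a stage, and the dissociated cells were kept in methanol before library preparation. With 1 library a stage there is no replicate, so no difference between stages was tested, stage and library cannot be told apart, and no p-value is given. Intervals are exact 95% intervals that cover counting error alone.

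Cartilage gets its strength from a mesh of collagen fibrils and its resistance to compression from a hydrated proteoglycan gel held in that mesh. Type II collagen builds the fibrils, type IX collagen coats them, aggrecan bound to hyaluronan through link protein forms the gel, and matrilins bridge the networks. The genes are switched on under SOX9, SOX5 and SOX6 when mesenchymal cells condense into chondrocytes. In the upper face such cells form the nasal capsule and septum above the palate, while the bony palate ossifies from mesenchyme without a cartilage model.

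The libraries held 4236, 2079 and 3113 cell barcodes and 11472663, 5293977 and 8313677 UMIs (unique molecular identifiers, 1 per captured RNA molecule) from the youngest to the oldest stage, the order in which triplets of values are given. After filtering 3567, 1745 and 2574 cells were left. The E13.5 library stood apart, since 49.5% of its cells were neuronal-like against 7.51% and 6.68% later. Its mesenchymal lineage (the clusters named mesenchymal, osteogenic or chondrogenic by their markers) was 17.6% of cells against 69.1% and 68.4%. Stages were therefore compared within that lineage, and levels are given as CPM, the UMIs of a gene divided by all UMIs of the summed cells and scaled to one common total. Between 1 and 3 barcodes were shared by any pair of libraries.

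Chondrogenic-like cells formed 1 of 24 clusters, made without the 10 genes. All 11 of the chondrogenic markers found in the files marked it, among them Sox9, Sox5, Sox6, Col11a2, Snorc, Comp and Matn4, and Col11a2 led its genes by fold. It held 106 of 629 lineage cells at E13.5, which is 16.9% (14.0 to 20.0%). At E14.5 it held 62 of 1206, or 5.14% (3.96 to 6.54%), and at E15.5 30 of 1761, or 1.70% (1.15 to 2.42%). The share of lineage cells was thus lower at each later stage, and the intervals did not overlap. With cells drawn one by one, as those with at least 3 different chondrogenic markers, the share was also lower at each later stage, at 22.7% (19.5 to 26.2%), 14.51% (12.6 to 16.6%) and 9.43% (8.10 to 10.9%). With those that had at least 2 of 7 cartilage markers, a gate added after the data were seen, the share was 6.84% (4.99 to 9.10%), 5.56% (4.33 to 7.002%) and 1.93% (1.34 to 2.69%). The intervals of the first 2 stages overlapped. Of all cells in the library the cluster made up 2.97%, 3.55% and 1.17%. The osteogenic-like class held 24, 293 and 347 of the lineage cells.

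**Figure D1:**
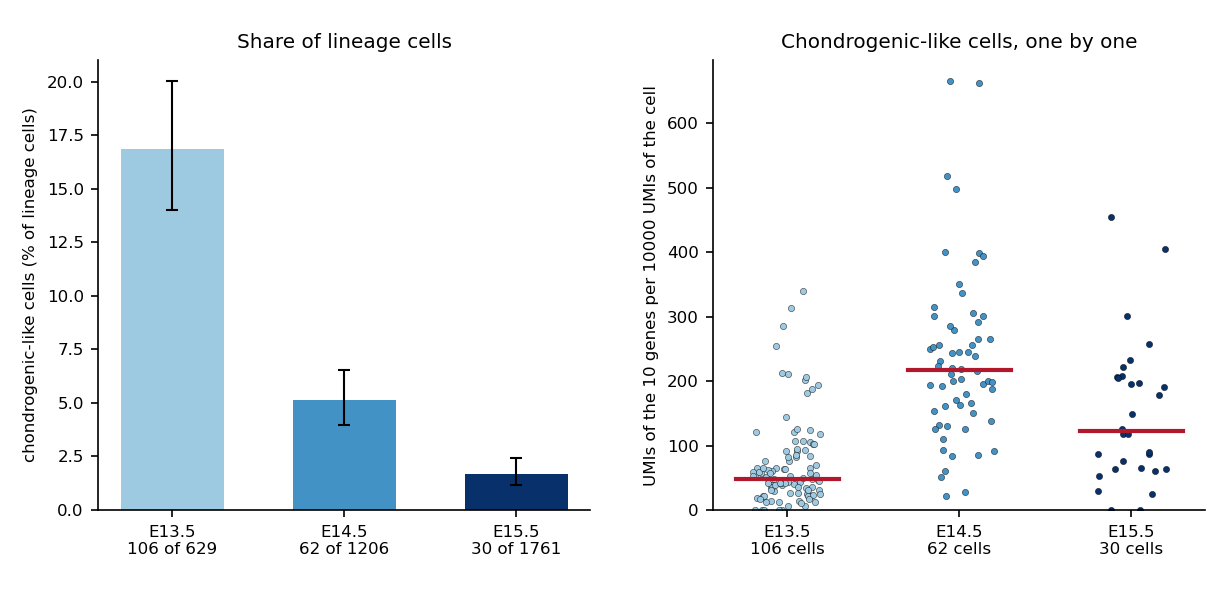
Left, chondrogenic-like cells as a percentage of mesenchymal-lineage cells at each stage, with exact 95% binomial intervals; the share is 16.9%, 5.14% and 1.70%. Right, the UMIs of the 10 genes per 10000 UMIs in each chondrogenic-like cell (points) with the median (red line); the medians are 48.8, 217 and 122.

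Over the whole lineage the 10 genes differed little in the median between the first 2 stages and were much lower at E15.5. From E13.5 to E14.5 1 of the 10 was at least 2-fold lower (Mia) and 1 at least 2-fold higher (Matn1), with a median log2 ratio of -0.27. Of 11538 genes with a mean of at least 5 CPM, 2.65% were that much lower and 8.93% higher. From E14.5 to E15.5 9 of 10 were at least 2-fold lower (background 1.41%), with a median of -1.70, and Col9a2 was 1.77-fold lower. From E13.5 to E15.5 8 of 10 were at least 2-fold lower (background 4.28%) and none higher (background 10.4%), with a median of -2.13. The median of all genes tested was within 0.03 of 0 in each comparison. Log2 ratios are of CPM + 1.

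Summed over all cells in place of the lineage, the first step turned: 7 of 10 genes were at least 2-fold higher at E14.5 than at E13.5 (background 17.3%) and none lower (background 7.06%), with a median of 1.47. None was then 2-fold lower between E13.5 and E15.5 (background 7.8%), with a median of -0.37. The share of lineage cells in the library moved with this, at 17.6%, 69.1% and 68.4%. The lower level at E15.5 than at E14.5 was seen on both bases, with 9 of 10 genes at least 2-fold lower in the whole libraries too (background 0.797%) and none higher (background 0.929%).

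Col2a1, the chain of the main cartilage fibril, lies on chromosome 15 (97975602 to 98004695, minus strand; all gene positions are on GRCm38). At E13.5 it stood at 483 CPM in the lineage (449 to 519; 743 UMIs), one stage on at 458 CPM (435 to 482; 1511 UMIs) and at the last at 123 CPM (114 to 133; 624 UMIs). The first pair overlapped within counting error, and the level at E15.5 was 3.72-fold below that at E14.5 (3.39 to 4.09). Inside chondrogenic-like cells its course was different: 2272 CPM (2091 to 2464), 7606 (7177 to 8055) and 4971 (4561 to 5409). As a part of these cells' UMIs it was thus 3.35-fold higher at E14.5 than at E13.5 (3.03 to 3.70) and, over the full interval to E15.5, 2.19-fold above the first stage (1.94 to 2.46). Both directions held for cells drawn by cluster. In cells drawn one by one by 3 markers the log2 ratios were -0.11 and -1.28, and by the stricter gate 0.32 and -0.37.

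The chains of type IX collagen, which sits on the surface of type II fibrils, were also highest at E14.5 inside the cluster. Their genes are spread over the genome: Col9a1 on chromosome 1 (24177610 to 24252684), Col9a2 on 4 (121039385 to 121055322) and Col9a3 on 2 (180597790 to 180622189), all on the plus strand. Col9a1 measured 864, 1949 and 1381 CPM there, a difference of 2.26-fold from E13.5 to E14.5 (1.89 to 2.70). Col9a2 measured 332, 1656 and 1197 CPM, 4.98-fold higher at E14.5 (3.88 to 6.45), and Col9a3 762, 2423 and 1142 CPM, 3.18-fold higher (2.67 to 3.80). In cells drawn by the 2 marker gates the log2 ratio from E13.5 to E14.5 was -0.76 and -0.31 for Col9a1 and -0.31 and -0.011 for Col9a3, against 1.17 and 1.67 in the cluster. For Col9a2 it was 0.39 and 0.78 by the gates, against 2.31 in the cluster. Over the lineage, by contrast, Col9a1 stood at 189, 109 and 34.1 CPM and Col9a3 at 156, 139 and 31.0 CPM. Col9a2 was the exception in the lineage, at 83.9, 121 and 68.6 CPM, so that its interval at E15.5 (61.6 to 76.2) overlapped that at E13.5 (70.1 to 99.7).

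The proteoglycan genes were also highest at E14.5 inside the cluster. Acan (chromosome 7, 79053483 to 79115099, plus strand), which encodes aggrecan, measured 399 CPM in chondrogenic-like cells of the youngest library (325 to 484), 1806 CPM in the next (1600 to 2031) and 911 CPM in the oldest (741 to 1110). This was 4.53-fold higher at E14.5 than at E13.5 (3.60 to 5.74) and 1.98-fold lower after it (1.57 to 2.52). Hapln1 (chromosome 13, 89539796 to 89611652, plus strand), the link protein that fixes aggrecan to hyaluronan, measured 610, 1325 and 663 CPM, so that its E15.5 level was back within counting error of E13.5 (ratio 1.09, 0.81 to 1.45). By the gates of 3 and of 2 markers the log2 ratio of Hapln1 from E13.5 to E14.5 was -0.65 and -0.47, against 1.12 in the cluster, while that of Acan was 0.34 and 0.62. In the lineage Acan stood at 69.6, 98.5 and 28.4 CPM and Hapln1 at 114, 87.0 and 33.7 CPM.

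The matrilins, adaptors between collagen fibrils and proteoglycans, differed from each other. Matn1, on the plus strand of chromosome 4 (130944385 to 130955475), stood at 235 CPM (179 to 302) in the E13.5 cells of the cluster, then at 2254 (2023 to 2504) and 1105 CPM (916 to 1321). Its 9.61-fold difference from E13.5 to E14.5 (7.29 to 12.9) was the largest of the 10, and 28 of 106 cells had a UMI at E13.5 against 58 of 62 at E14.5. The gene of its relative Matn3 lies on the plus strand of chromosome 12 (8947929 to 8972028) and measured 109, 195 and 120 CPM from 28, 30 and 13 UMIs, and was 1.78-fold higher at the second stage than at the first (1.03 to 3.09). By the 2 gates its log2 ratio was -0.99 and -0.84, against 0.83 in the cluster, and that of Matn1 was 1.36 and 1.65. At these counts no change of Matn3 from E14.5 to E15.5 was detectable (ratio 0.614, 0.294 to 1.21), and 1 cell held 32.1% of its E13.5 UMIs.

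Cnmd and Mia encode secreted proteins of chondrocytes. Cnmd, or chondromodulin, which keeps vessels out of cartilage, lies on chromosome 14 (79637690 to 79662170, minus strand) and measured 598, 1351 and 700 CPM in chondrogenic-like cells. Its log2 ratio between the first 2 stages was 1.17 there and -0.71 and -0.43 by the gates. Mia lies on chromosome 7 (27179742 to 27181157, minus strand) and measured 813, 1104 and 773 CPM, and its 1.36-fold difference between the first 2 stages (1.10 to 1.67) was the smallest of the 10. By the gates the log2 ratio of Mia was -1.34 and -0.99. In the lineage Mia was already 2.65-fold lower at E14.5 (2.24 to 3.15), at 204, 76.7 and 34.1 CPM, while Cnmd stood at 113, 77.6 and 18.1 CPM. The annotation places Mia under a same-strand readthrough gene, Gm21983, and Col9a3 and Hapln1 opposite Tcfl5 and Gm8546, and the counting of shared reads is not given in the sources used here.

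**Figure D2:**
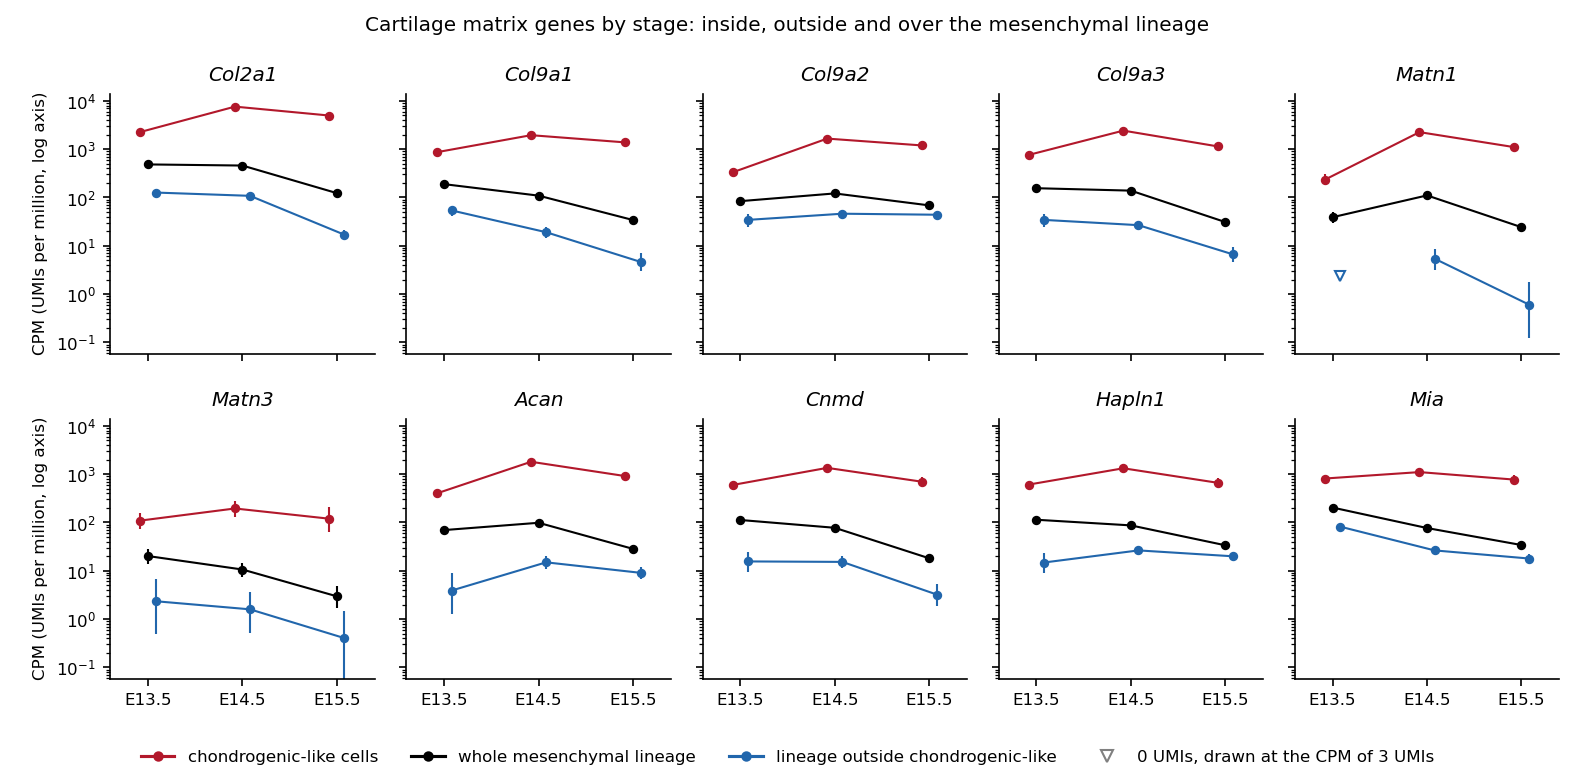
CPM (log axis) of each gene at the 3 stages in chondrogenic-like cells (red), the whole mesenchymal lineage (black) and the lineage outside that cluster (blue), with exact 95% Poisson intervals. Red is highest at E14.5 in all 10 panels, black is lowest at E15.5 in all 10, and Matn1 had 0 UMIs outside the cluster at E13.5.

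Counted together, 8 of 10 genes were at least 2-fold higher inside chondrogenic-like cells at E14.5 than at E13.5 and none was lower, with a median log2 ratio of 1.42. With so few cells many genes pass that fold: 19.7% of genes with a mean of at least 5 CPM were that much higher and 20% lower, and 11.5% and 9.85% at 50 CPM or more, a level that all 10 members reach. From E14.5 to E15.5 all 10 were lower, 2 of them at least 2-fold (Col9a3 and Matn1; background 20.5%, or 8.98% at 50 CPM), with a median of -0.82. Leaving out the cell with most member UMIs in each library gave 8 and 3 genes. The count of 2 was 0 with at least 1000 genes per cell and 0 with each library clustered alone. The median with each library clustered alone was -0.30. From E13.5 to E15.5 4 were at least 2-fold higher (Col2a1, Col9a2, Matn1 and Acan; background 24%, or 14.9% at 50 CPM). The markers of other cell types moved in this cluster as well: summed mesenchymal markers (9, 11 and 10 of 11 with a UMI) stood at 1263, 3079 and 3867 CPM. Erythroid markers (6, 6 and 8 of 8; Alas2 at 0 in the first 2 stages) stood at 2741, 10698 and 7503 CPM, and neuronal markers (9, 3 and 6 of 9; Elavl3 and Dcx at 0 at the later stages) at 540, 227 and 249 CPM. The part of these RNAs in the result was not tested.

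The in-cluster difference from E13.5 to E14.5 depended on how chondrogenic-like cells were drawn. Lineage cells with UMIs of at least 3 different chondrogenic markers, a gate read cell by cell, numbered 143, 175 and 166, and within them the median log2 ratio was -0.48 with 1 gene at least 2-fold higher (Matn1; 16.8% of all genes in these cells) and 1 lower (Mia; 6.89%). Then 8 were lower and none higher at E15.5 than at E14.5 (4.7% and 4.29% of all genes). From E13.5 to E15.5 7 were lower and none higher (11.4% and 19.8%), and the median was -1.78, against 0.63 in the cluster. Of the gated cells 66.4%, 34.3% and 16.9% lay in the cluster. Gated cells outside it had a median of 3182.5, 4402 and 4396.5 UMIs against 1959, 1865 and 2452 in gated cells inside it, and their Col2a1 level was 376, 223 and 41.3 CPM. In cells that were both gated and in the cluster Col2a1 stood at 2321, 7626 and 5132 CPM. A stricter gate, added after the data were seen, of at least 2 of Col11a2, Snorc, Scrg1, Comp, Cytl1, Matn4 and Fgfr3 took 43, 67 and 34 cells, or 6.84%, 5.56% and 1.93% of the lineage. There 1 gene was at least 2-fold higher from E13.5 to E14.5 (Matn1; 26.5% of all genes) and none lower (14.1%), with a median of -0.16, and 4 were lower and none higher in the next step (14% and 12.8%). Over both steps 5 were lower and none higher (19.7% and 30.4%), with a median of -1.02. Col2a1 stood in these cells at 2687, 3361 and 2072 CPM, and in its 41, 55 and 24 cells inside the cluster at 2907, 7679 and 5244 CPM. The stricter gate held 142552, 373086 and 256747 UMIs, of which its cells inside the cluster held 128642, 146891 and 99727. At the later stages most UMIs of this gate thus lay in its cells outside the cluster. The part of those cells in its ratios was not tested.

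Cell by cell, fewer of the genes were found in each cell at E13.5 than later. After thinning each cell to 1500 UMIs, which left 69, 38 and 19 chondrogenic-like cells, a median of 4, 8.5 and 7 of the 10 genes had a UMI. Unthinned, the medians were 4, 9 and 8, over cells with median depths of 1889, 1833 and 2449 UMIs. Col2a1 was found in 81.2% of thinned cells at E13.5 (69.9 to 89.6%), in 38 of 38 at E14.5 and in 94.7% at E15.5 (74.0 to 99.9%). Acan was found in 23.2% (13.9 to 34.9%), 81.6% (65.7 to 92.3%) and 68.4% (43.5 to 87.4%), and unthinned in 35.8%, 83.9% and 86.7%. Endothelial-like and myeloid-like cells, which should lack these genes, had Col2a1 in 0 of 25, 3 of 76 and 0 of 101 thinned cells, with exact upper bounds of 13.7%, 11.1% and 3.59%, at unthinned median depths of 1890.5, 2096 and 1762.5 UMIs. The share of cells with Col2a1 UMIs in the cluster was above that background at all 3 stages.

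Summed over the 10 genes, a chondrogenic-like cell held a median of 48.8 member UMIs per 10000 at E13.5, with a lowest value of 0 and a highest of 340. At E14.5 the median was 217 (21.8 to 665) and at E15.5 122 (0 to 455). The ranges overlapped widely, and 5 of 106 cells at E13.5 and 2 of 30 at E15.5 had no UMI of any of the 10. At E15.5 a single cell held 97 of the cluster's 540 Col2a1 UMIs. The mix of the 10 genes differed between stages. Matn1 made up 3.35% of the 10 genes' UMIs in the first library (2.57 to 4.30%), 10.4% in the second (9.39 to 11.5%) and 8.52% in the last (7.12 to 10.1%). Mia went from 11.6% to 5.10% and 5.97%, and Col2a1 from 32.5% to 35.1% and 38.4%.

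UMIs of the genes were also found in lineage cells outside the cluster, at much lower levels. Col2a1 measured 126 CPM there in the youngest library (108 to 147), 108 CPM in the next (97.0 to 120) and 16.9 CPM in the oldest (84 UMIs), so that the level in the cluster was 18.0, 70.3 and 294 times that outside. Col9a1 in the same cells stood at 53.9, 19.1 and 4.63 CPM, lower at each later stage. Col9a2 had another course, at 34.3, 46.1 and 43.9 CPM, and so had Hapln1, at 14.8, 26.4 and 19.9 CPM. Acan stood at 14.9 CPM at E14.5 (11.0 to 19.9) against 3.90 CPM at E13.5 (1.27 to 9.11), and Mia stood at 82.0, 26.4 and 17.9 CPM. Matn1 had 0 UMIs outside the cluster at E13.5 and 17 at E14.5, or 5.41 CPM. Many of these levels were not above those in endothelial-like and myeloid-like cells, where Col2a1 stood at 15.1, 97.1 and 0 CPM, with 27 of its 31 UMIs at E14.5 in 1 cell. In those cells at E14.5 Matn1 stood at 59.5 CPM, with 18 of 19 UMIs in 1 cell, and Acan at 18.8 CPM, with all 6 UMIs in 1 cell. The interval outside the cluster lay wholly above theirs for 2 genes at E13.5 (Col2a1 and Mia), for 0 at E14.5 and for 3 at E15.5 (Col2a1, Col9a2 and Mia), while in the cluster it did so for all 10 at each stage. The 0 at E14.5 turned on 1 cell: without the endothelial-like or myeloid-like cell with most member UMIs, Col2a1 stood there at 12.8 CPM (3.48 to 32.7), and the interval outside the cluster lay above for 3 genes (Col2a1, Col9a2 and Col9a3). The counts at the other stages stayed at 2 and 3 without such a cell. Levels outside the cluster that are not above those cells are given as UMI levels and not as expression.

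From E14.5 to E15.5 5 of 10 genes were at least 2-fold lower outside the cluster (background 1.36%) and none higher (background 1.02%), with a median log2 ratio of -1.36. This median was -0.59 with the members kept in the clustering, -0.32 with at least 1000 genes per cell and -0.04 with each library clustered alone. The 5 were Col2a1, Col9a1, Col9a3, Matn1 and Cnmd. At E14.5 none of these stood above the endothelial-like and myeloid-like cells. Without the cell of that background with most member UMIs, only Col2a1 and Col9a3 of these did. Of the 10, 8 had a mean of at least 5 CPM outside the cluster, which the background of all genes requires. Matn1 and Matn3 did not, although Matn1 is among the 5 lower here and the 2 higher below, and Matn3, with 3 and 2 UMIs, among the 6 lower below. From E13.5 to E14.5 2 were lower (Col9a1 and Mia; background 2.89%) and 2 higher (Matn1 and Acan; background 9.18%). From E13.5 to E15.5 6 were lower (background 4.33%) and 1 higher (Acan, from 5 and 45 UMIs; background 10.6%), with a median of -1.61. The clusters behind these sums changed in size. The mesenchymal-like cluster led by Gpr20, Mogat1 and Otor was 66.5% of cells outside at E13.5 and 5.78% at E15.5, with Col2a1 at 142, 253 and 26.6 CPM. With equal weight for the 4 clusters that held at least 20 cells at every stage, which covered 96.0%, 57.5% and 49.0% of the cells outside, Col2a1 stood at 98.5, 174 and 19.5 CPM and 4 genes were at least 2-fold higher at E14.5 than at E13.5 (background 11.8%), Matn1 below the 5 CPM of that background among them, and none lower (background 4.92%).

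**Figure D3:**
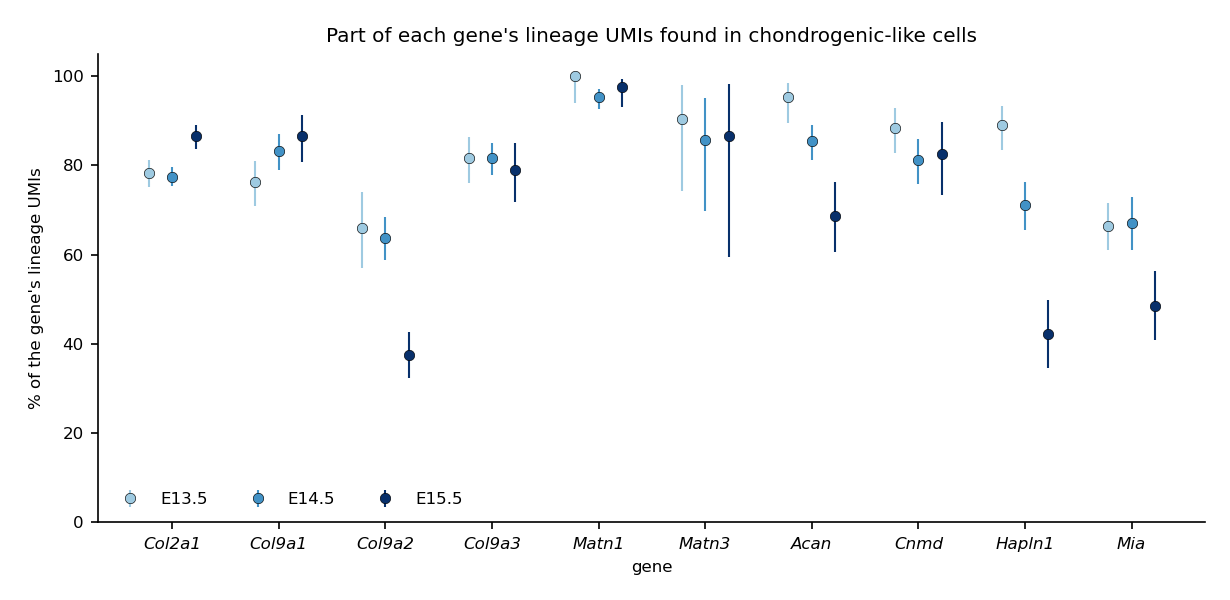
Percentage of each gene's mesenchymal-lineage UMIs that lay in chondrogenic-like cells at the 3 stages, with exact 95% binomial intervals. Matn1 stays at 95.3% or more, while Col9a2, Hapln1, Acan and Mia are lowest at E15.5, at 37.4%, 42.1%, 68.8% and 48.6%.

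The cluster thus carried most but not all of the lineage signal. With 16.6%, 4.67% and 2.14% of lineage UMIs in all, it held a median of 85.0%, 81.4% and 80.8% of the UMIs of the 10 genes. For Matn1 the share was 100% (94.0 to 100%), 95.3% and 97.6%, and for Col2a1 it was 78.2% (75.1 to 81.1%), 77.5% and 86.5% (83.6 to 89.1%). Col9a2 went from 65.9% (57.0 to 74.0%) to 37.4% (32.3 to 42.7%) and Hapln1 from 89.1% (83.6 to 93.3%) to 42.1% (34.6 to 49.9%). For both genes most of the lineage UMIs at E15.5 thus lay outside the cartilage cluster, at a level above that of endothelial-like and myeloid-like cells for Col9a2 and not for Hapln1. For Mia the share in the cluster at E15.5 was 48.6% (40.9 to 56.3%), a near even split, and its level outside was above that of those cells.

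How far the lineage change follows the number of chondrogenic-like cells was computed from CPM as the share of UMIs in the cluster times the level inside, plus the rest times the level outside. From E13.5 to E14.5 the smaller share alone would have lowered all 10 genes, with a median log2 ratio of -1.26. The changed levels alone would have raised them, with a median of 1.27, and the measured median was -0.27. For Col2a1 the values were -1.09 from the share, 1.49 from the levels and -0.08 measured. For Matn1 they were -1.74, 3.25 and 1.48, and for Mia -0.81, 0.01 and -1.40. A similar lineage level of Col2a1 at both stages thus went with a smaller share of lineage UMIs in chondrogenic-like cells and a higher level in them, with the cells drawn by cluster. With the cells drawn by marker gates, the medians of both parts of this step turned. The gate of 3 markers held 28.9%, 31.0% and 19.3% of lineage UMIs, and the stricter gate 9.27%, 11.3% and 5.06%. From E13.5 to E14.5 the share alone then gave a median of 0.09 or 0.18 and the levels alone -0.36 or -0.49.

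From E14.5 to E15.5 both parts pointed down: the share alone gave a median of -0.80 (-1.03 to -0.58 over the 10 genes), the levels alone -0.84 (-1.20 to -0.31) and the measured median was -1.70. Over the whole interval from E13.5 to E15.5 the share alone gave -1.76, the levels alone 0.32, and the measured median was -2.13. For Cnmd the share alone gave -1.97 of a measured -2.57. For Mia the levels pointed down as well, at -0.50 beside -1.05 from the share. For Matn1 the share alone gave -2.73 and the levels 2.21, leaving a measured -0.67. Under either gate, too, both parts were below 0 in all 10 genes from E14.5 to E15.5, with medians of -0.56 and -0.87 from the share and -1.14 and -0.82 from the levels. From E13.5 to E15.5 the gates gave medians of -0.50 and -0.46 from the share and -1.62 and -1.45 from the levels. In the median the levels thus pointed down where they pointed up by cluster. The 2 parts do not add up to the measured value because both act on the same sum.

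**Figure D4:**
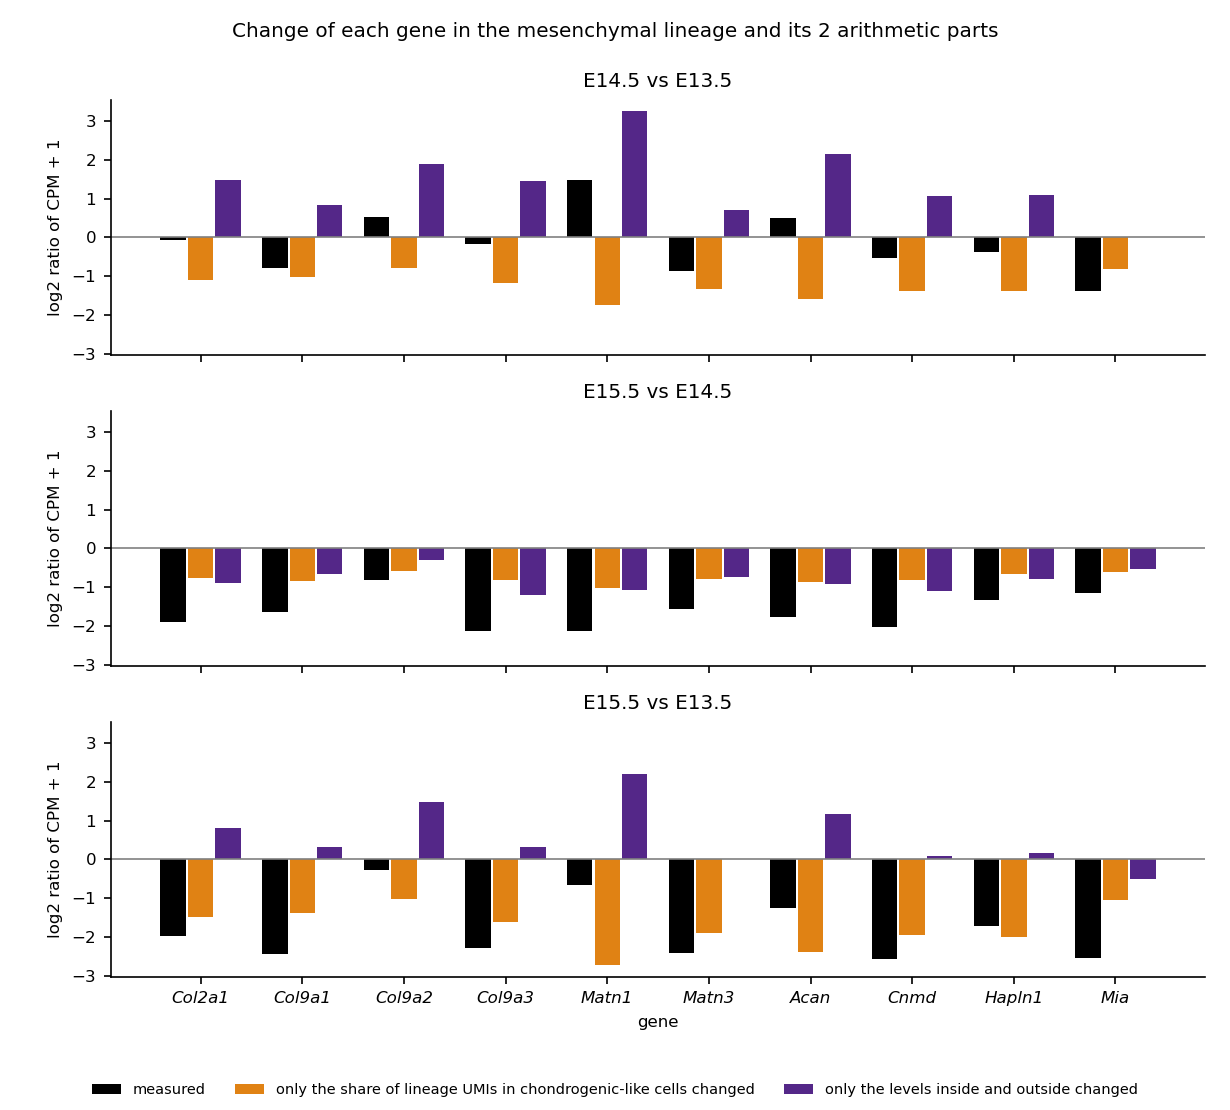
Log2 ratio of lineage CPM + 1 for each gene in the 3 comparisons: as measured (black), with only the share of lineage UMIs in chondrogenic-like cells changed (orange) and with only the levels inside and outside changed (purple). With cells drawn by cluster, orange lies below 0 in all 10 genes and purple above 0 from E13.5 to E14.5; from E14.5 to E15.5 both lie below 0 in all 10.

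Beyond the lineage, glial-like and epithelial-like cells held some of the genes above the level of endothelial-like and myeloid-like cells. Glial-like cells, named by markers of Schwann cells such as Sox10 and Erbb3, held Cnmd at 63.6, 151 and 165 CPM (4, 22 and 25 UMIs), Col9a2 at 31.8, 103 and 172 CPM and Col9a3 at 0, 96.3 and 119 CPM. At the later stages the intervals of these 3 genes lay above those of the endothelial-like and myeloid-like cells, where Cnmd was at 9.39 and 0 CPM. At E15.5 that of Col9a1 in glial-like cells, at 46.3 CPM (18.6 to 95.4; 7 UMIs), lay just above theirs, with an upper bound of 18.1 CPM. Glial-like Col2a1, at 63.6, 55.0 and 19.8 CPM, did not stand above them at any stage, and Hapln1 and Matn3 had 0 UMIs at every stage. At E15.5 20.5% of the library's Cnmd UMIs lay in these 68 cells. Cnmd and type IX collagen chains were thus found in cells where Matn1 had 1 UMI over all 3 stages and the link protein none.

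Epithelial-like cells held Mia at 19.0, 226 and 26.6 CPM. At E14.5 these were 127 UMIs, 32.2% of the library's Mia, and 85 of them came from a single cell. Cnmd in epithelial-like cells was at 29.6, 73.0 and 2.42 CPM, above the endothelial-like and myeloid-like level at E14.5 and not at the other stages. Without the endothelial-like or myeloid-like cell with most member UMIs, the genes above that level in epithelial-like cells at E14.5 numbered 5 in place of 2, Col2a1 (153 CPM, 123 to 189), Col9a2 and Col9a3 being added to Cnmd and Mia. The endothelial-like class at E14.5 showed Col2a1 at 211 CPM and Matn1 at 136 CPM, but 27 of 28 Col2a1 UMIs and 18 of 18 Matn1 UMIs came from 1 cell for each gene. Osteogenic-like cells held Acan at 19.1, 16.2 and 28.3 CPM and Hapln1 at 0, 38.4 and 34.8 CPM, from 26 and 32 UMIs of Hapln1 at the later stages. Of these values, Acan at E15.5 alone had an interval above that of the endothelial-like and myeloid-like cells, and Hapln1 at E14.5 did so too without their cell with most member UMIs.

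A cluster at E13.5 left without a name held 241 cells of deep barcodes, with 3.25 times the library's median depth and embryonic globin and neuronal genes in the lead. It carried between 13.2% (Matn3) and 31.4% (Col9a1) of each gene's UMIs in that library, including 320 of 1187 for Col2a1, and is outside the lineage sums. In neuronal-like cells Col2a1 stood at 9.64, 13.8 and 16.5 CPM, which was not above the endothelial-like and myeloid-like level at any stage, with or without their cell with most member UMIs. Without it, Col9a2 in neuronal-like cells at E14.5, at 49.7 CPM (29.5 to 78.6), was the 1 gene above that level.

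**Figure D5:**
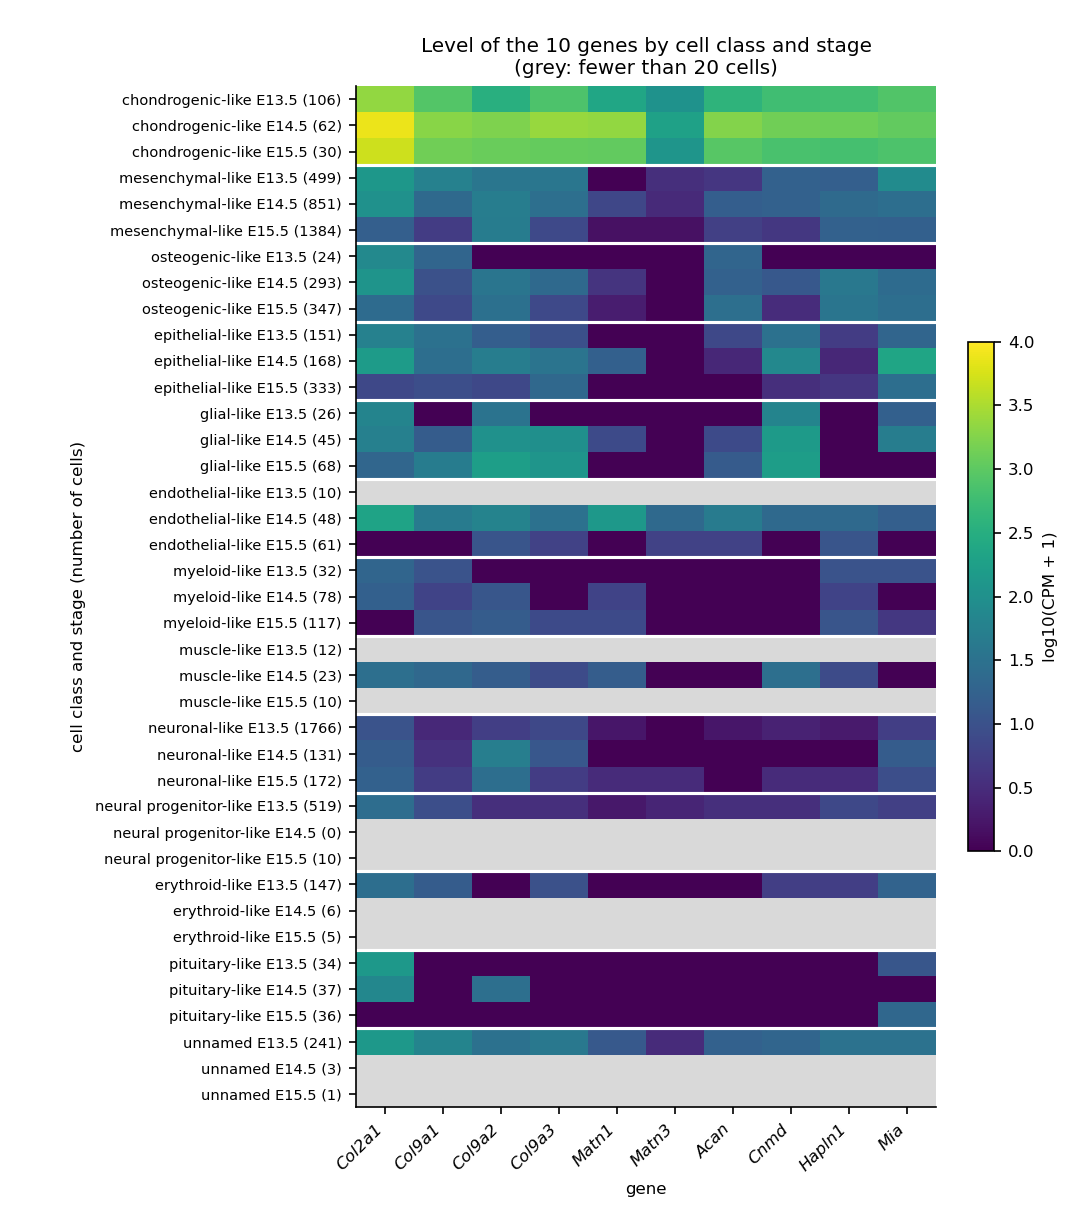
Level of the 10 genes, as log10(CPM + 1), in each cell class and stage, with the number of cells in parentheses and classes of fewer than 20 cells in grey. The chondrogenic-like rows are the brightest for each gene, and glial-like cells show Cnmd, Col9a2 and Col9a3.

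Since all 10 genes were highest at E14.5 inside the cluster, promoters were read from RefSeq (GRCm38.p6), which matched 8 of the 10 members with 9 promoters, Col9a1 having 2. Col2a1 and Col9a3 are named only. Shown, as examples picked after their values were seen, are the 250 bases before the RefSeq start of both matrilins, of Acan and of Cnmd, which were 9.61-fold (Matn1), 1.78-fold (Matn3), 4.53-fold and 2.26-fold higher in the cluster at E14.5 than at E13.5. They are not the top and bottom of the set, since Col9a2 (4.98-fold) lies above Acan, and Hapln1 (2.17-fold) and Mia (1.36-fold) below Cnmd. For Acan and Cnmd the RefSeq start lies upstream of the gene position given above. Capitals mark GGGCGG or its reverse complement, the GC box bound by Sp1-type factors. The windows are chr4:130944135-130944384 (plus strand), chr7:79052976-79053225 (plus), chr12:8947679-8947928 (plus) and chr14:79662184-79662433 (minus).
Matn1: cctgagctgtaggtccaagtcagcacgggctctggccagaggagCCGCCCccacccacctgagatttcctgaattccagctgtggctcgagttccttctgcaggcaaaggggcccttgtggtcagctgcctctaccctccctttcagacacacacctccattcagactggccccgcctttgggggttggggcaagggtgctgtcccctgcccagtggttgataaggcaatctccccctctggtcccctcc
Acan: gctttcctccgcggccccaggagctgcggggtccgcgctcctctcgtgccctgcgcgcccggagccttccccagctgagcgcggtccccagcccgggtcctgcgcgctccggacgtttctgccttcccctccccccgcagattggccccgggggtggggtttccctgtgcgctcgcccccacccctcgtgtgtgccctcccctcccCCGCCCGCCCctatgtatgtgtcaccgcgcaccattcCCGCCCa
Matn3: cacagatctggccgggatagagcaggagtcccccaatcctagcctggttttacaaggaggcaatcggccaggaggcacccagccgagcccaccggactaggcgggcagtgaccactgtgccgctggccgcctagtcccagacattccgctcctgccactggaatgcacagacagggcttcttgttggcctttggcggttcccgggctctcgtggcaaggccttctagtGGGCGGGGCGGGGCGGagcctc
Cnmd: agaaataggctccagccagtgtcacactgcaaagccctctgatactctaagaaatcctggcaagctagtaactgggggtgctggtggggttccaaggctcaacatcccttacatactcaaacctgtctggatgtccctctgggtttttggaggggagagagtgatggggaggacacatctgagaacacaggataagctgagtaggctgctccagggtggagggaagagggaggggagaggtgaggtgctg
The GC box occurred in 4 of the 9 member windows, with 1 match in Matn1, 2 in Col9a2 and 3 each in Acan and Matn3, overlapping matches and both strands counted. Of 32851 promoter windows of the same length 32.7% hold it. GC content ran from 43.6% in the first Col9a1 window to 74.4% in Acan, against a median of 52.4%. TATAAA was in 0 of 9 (12.4% of all windows), and ACAAAG or ACAATG, core letters of Sox-type sites, in 0 of 9 (25.2% of all). These are matches of letters in short windows and no measure of binding.

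The transcription factors Sox9, Sox5 and Sox6 differed by less than 2-fold between E13.5 and E14.5 inside the cluster and were lowest at E15.5. Sox9, the factor that starts chondrocyte fate, stood at 954, 1033 and 562 CPM in chondrogenic-like cells, a ratio of 1.08 from E13.5 to E14.5 (0.881 to 1.33). Sox5 and Sox6, its partners, stood at 1752, 2027 and 1022 CPM and at 1517, 1994 and 1160 CPM, 1.16-fold (0.998 to 1.34) and 1.31-fold higher (1.13 to 1.53) at E14.5 than at E13.5. None of the 8 factors past 5 CPM in the cluster was at least 2-fold higher at E14.5 (19.7% of all genes) and 1 was that much lower (Foxa3, 7 and 2 UMIs; 20% of all genes), with a median log2 ratio of 0.05. With 8 genes these counts are near those shares. In the lineage, Sox9 was lower from E13.5 to E15.5 (log2 -1.64; 247 to 78.3 CPM) and so was Sox5 (-1.32), while Runx3 (1.07, from 7 and 54 UMIs) and Arid5b (0.63) were higher. Sox9, Sox5 and Sox6 were among the markers that named the cluster.

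Other cartilage matrix genes were mostly higher at E14.5 than at E13.5 inside the cluster, as the members were. Of 16 past 5 CPM there 11 were at least 2-fold higher (19.7% of all genes) and 1 lower (20% of all genes), with a median of 1.78. From E14.5 to E15.5 they were split, 4 lower (20.5% of all genes) and 4 higher (21.5%), with a median of -0.27 against -0.82 for the members. Over the lineage the same step had 7 of 12 at least 2-fold lower (1.41% of all genes) and none higher (0.901%), with a median of -1.16. Col11a2, Snorc, Scrg1, Comp, Cytl1 and Matn4 of this list were among the markers that named the cluster. All of these but Cytl1 were at least 2-fold higher in it at E14.5 than at E13.5. Values by marker gate are not given for this list. Col11a2, a chain of the type XI collagen at the core of type II fibrils, stood at 246, 1669 and 1068 CPM and Snorc, a small proteoglycan of chondrocytes, at 35.2, 461 and 184 CPM. In the lineage their median was 0.60 from E13.5 to E14.5, where that of the members was -0.27. From E13.5 to E15.5 4 of 12 were at least 2-fold lower (4.28% of all genes) and 2 higher (10.4%), with a median of -0.67, the extremes being Cytl1 (-2.65) and Otor (-2.60) against Fmod (3.04, from 1 and 64 UMIs) and Matn2 (2.15). Fmod and Matn2 are also made by fibrous connective tissue. Enzymes that build and sulfate the chains of aggrecan were 9 of 19 at least 2-fold higher in the cluster at E14.5 (19.7% of all genes) and 2 lower (20%), with a median of 0.70. Csgalnact1, which starts chondroitin chains, stood there at 258, 994 and 700 CPM. In the lineage this list was near 0 from E13.5 to E15.5, with a median of -0.08, extremes Slc26a2 (-0.48), B4galt7 (-0.29, from 20 and 53 UMIs), Csgalnact2 (0.70) and Chsy3 (1.51).

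Some genes of the growth plate signalling list had few UMIs in the cluster. Of 8 past 5 CPM there 2 were at least 2-fold higher at E14.5 (19.7% of all genes) and 3 lower (20%), each of the latter from 5 UMIs or fewer at both stages, so that the counts are near those of any genes. Fgfr3, a brake on chondrocyte division, was at 39.1, 104 and 73.6 CPM from 10, 16 and 8 UMIs. In the lineage Bmpr1b, a BMP receptor of cartilage condensations, was lower from E13.5 to E15.5 (-2.78; 268 to 38.1 CPM) and Fgfr3 was at -0.21. Pthlh (1.69, from 4 and 54 UMIs) and Ptch1 (0.90), a hedgehog receptor and target, were higher.

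By profile over 29 combinations of class and stage with at least 20 cells, the genes closest to the mean log2(CPM + 1) of the members among 13666 were Snorc (Pearson r 0.94), Col11a2 (0.92), Susd5 (0.91), Comp (0.89) and Matn4 (0.84). Next came Fam180a (0.81), Col11a1, Wwp2 and Col27a1 (0.80 each) and Ucma (0.79). Snorc, Col11a2, Comp, Matn4 and Wwp2 had been used to name the cluster. The combinations share libraries and 1 chondrogenic-like cluster, so these values describe the profile alone. Among the members, Col9a3 (0.91) and Col9a1 (0.91) lay closest to the mean and Mia (0.78) farthest.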

How the data were processed

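The authors deposited tables of UMI counts by gene and barcode; Cell Ranger 6.1.2 and mm10 are named, per the submitters' processing notes and the file headers; the annotation release is not given in the sources used here. Members and gene lists were chosen with earlier results of these data known. Cells with at least 500 genes and at most 20% mitochondrial UMIs were kept. An automatic doublet caller marked 5 cells (0.0617%) and was not used; the highest scores were left out at 0.8% per 1000 barcodes, leaving 7886 cells. Cells were clustered without the 10 members (scanpy 1.11.5, igraph 0.11.9; 2000 variable genes, 30 components, 15 neighbours, resolution 1). A cluster was named where at least 3 markers of a list passed; among mesenchymal, osteogenic and chondrogenic, its leading genes decided, a rule set after the clusters were seen. Counts were summed per class and library and scaled to CPM. Poisson, binomial and conditional ratio intervals are exact (scipy 1.17.1). Ratios add 1 CPM; a gene was called at 2-fold. Levels elsewhere were set against summed endothelial-like and myeloid-like cells, a comparison added after the data were seen, as were its repeat without 1 cell per library and the share and level parts by marker gate. In each list the 2 highest and 2 lowest lineage log2 ratios from E13.5 to E15.5 are named, and other list genes were chosen after their values were seen. Some marker genes are not reported here by name. The scripts were tested on simulated data.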

Additional observations from a re-analysis of the deposited data

How the results depend on the processing

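Clustering at resolution 0.5 or 2, keeping all doublets, or leaving out the cell with most member UMIs in each library (chosen after seeing the data) moved no share of cells, no count of members beyond 1.5 times and no median of the 10 beyond the median bounds of their counting intervals. No filter on low values bears only on the background, and no thinning only on the shares of cells with a UMI. No paired analysis was possible because each stage is 1 library. For the values below that moved, the cause was not tested.
With the members kept in the clustering, the chondrogenic-like share at E13.5 was 20.5% and the median log2 ratio outside the class from E14.5 to E15.5 was -0.59. With at least 1000 genes per cell, that share was 20.6%, 2 genes were 2-fold lower in the lineage from E13.5 to E14.5, and 0 were lower inside the class from E14.5 to E15.5. Outside the class 3 were then lower from E14.5 to E15.5 (median -0.32; Matn1 0.55) and 2 higher from E13.5 to E15.5.
With the gate of 3 markers per cell, shares were 22.7%, 14.51% and 9.43%. Inside it, from E13.5 to E14.5, 1 gene was lower and 1 higher (median -0.48; Col2a1 -0.11, Col9a1 -0.76, Col9a3 -0.31, Matn3 -0.99, Cnmd -0.71, Hapln1 -0.65, Mia -1.34). From E14.5 to E15.5 8 were lower, and from E13.5 to E15.5 7 lower and 0 higher (median -1.78; Col2a1 -1.28, Col9a2 -0.36, Matn1 -0.14, Acan -0.93); outside, 2 were higher.
With the stricter gate, chosen after seeing the data, the E13.5 share was 6.84%. Inside it 1 gene was higher from E13.5 to E14.5 (median -0.16; Col9a1 -0.31, Col9a3 -0.011, Matn3 -0.84, Cnmd -0.43, Hapln1 -0.47, Mia -0.99), 4 were lower from E14.5 to E15.5, and 5 lower and 0 higher from E13.5 to E15.5 (median -1.02; Col2a1 -0.37, Acan -0.39). Outside, 7 were lower and 0 higher from E13.5 to E14.5 (median -1.57; Matn1 -0.89, Acan -1.13), and 0 higher from E13.5 to E15.5 (Acan -1.32).
Over all cells of the library, 0 were lower and 7 higher from E13.5 to E14.5 (median 1.47; Mia 0.94), and 0 lower and 1 higher from E13.5 to E15.5 (median -0.37; Acan 0.39). With each library clustered alone, lineage medians were -1.27 from E14.5 to E15.5 and -1.60 from E13.5. Inside the class 0 were lower from E14.5 to E15.5 (median -0.30) and 7 higher from E13.5 to E15.5 (median 1.23); outside, 2 were lower from E14.5 to E15.5 (median -0.037; Matn1 0.68) and 3 higher from E13.5 to E15.5. With 5 CPM added, the lineage median from E13.5 to E15.5 was -1.80, and outside -0.70 from E14.5 to E15.5 with 0 higher from E13.5 to E15.5. With a fixed cluster mix outside, chosen after seeing the data, 0 were lower and 4 higher from E13.5 to E14.5. Depth limits Matn3 most, with 13 UMIs inside the class at E15.5.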
